A study of Mus musculus with 4 samples.

Results

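The comparison described here sets the colon of Pla2g3+/+ mice treated with azoxymethane (AOM) against the colon of Pla2g3+/+ mice treated with vehicle. It was taken from the sample labels and comprises 2 of the 4 arrays of the study, 1 per group. AOM is a procarcinogen that alkylates DNA after metabolic activation and gives rise to tumors in the distal colon of rodents. The mice received AOM intraperitoneally at 10 mg/kg body weight in 6 weekly doses, and the colon was taken 28 weeks after the last dose. The vehicle group received saline. All 4 groups were labelled male and 42 weeks old, with the background B6.129 (n3), and Pla2g3+/+ and Pla2g3-/- were littermates from a C57BL/6 and 129 cross backcrossed for 3 generations. The other 2 arrays were labelled Pla2g3-/- with vehicle and with AOM, and their values are given beside those of Pla2g3+/+ for the main gene groups. Pla2g3 encodes the secreted phospholipase sPLA2-III.

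Each array was hybridized with 1 RNA pool of 3 to 5 mice. The exact number is given differently in different sources. The methods name the whole descending colon, whereas the sample descriptions call the tissue of both AOM groups colorectal cancer, so the share of tumor in the AOM pool is not known. There was no replicate of either group. The differences below therefore have no p-value, and the spread between mice is unknown. Signals are intensities divided by the 75th percentile of their array and multiplied by 1000, called scaled signals, and differences are given as folds or as log2 of AOM over vehicle. The error that the scanner software assigns to the signals came to a median of 0.20 on the log2 scale for such a difference and covers the array only. A gene was called higher or lower past 2-fold. For a gene detected well above background on only 1 of both arrays the fold is a bound, written "at least", against the lowest scaled signal that was well above background on the other array, 16.6 with vehicle and 12.6 after AOM, or its own signal if higher.

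Of 22381 genes with a probe, 17285 gave a value in Pla2g3+/+ colon, 1819 of them as a bound. After AOM, 2615 genes (15.1% of those with a value) rose past 2-fold and 3874 (22.4%) fell past it, with a median log2 difference of -0.17 over all genes. At 4-fold, 861 were higher and 1252 lower. The shares depended on scaling, since the 75th percentile of intensity was 1309 on the AOM array and 645.6 on the vehicle array. Of the genes past 2-fold, 40.3% were higher with the 75th percentile, 49.2% with quantile normalization, 50.8% with normexp background correction before quantile normalization, and 86.3% with no scaling. Leaving out the scaling moved the median of all genes by 1.04 on the log2 scale, and the counts of lists without a marked direction moved with it, as given below. Between 64.8% and 69.4% of spots were well above background on the 4 arrays. In the arrays labelled Pla2g3-/-, 9.64% of genes were higher and 15.1% lower after AOM, and between the vehicle arrays of both genotypes 1.92% were higher and 1.32% lower in the array labelled Pla2g3-/-.

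Labels were checked before the results. The brightest of 3 probes for Pla2g3 (chromosome 11, mm9 3394109 to 3394168) had scaled signals of 531 with vehicle and 232 after AOM in Pla2g3+/+, a 2.29-fold fall. It had 656 with vehicle and 1396 after AOM on the arrays labelled Pla2g3-/-, so it was not lower there. Whether the probes lie within the deleted part is not given in the sources used here, and the genotype is given throughout as labelled. Of the other probes, 1 gave -1.46 and 1 gave 0.91 on the log2 scale between Pla2g3+/+ vehicle and AOM. Xist, the RNA of X inactivation, which marks female cells, was below background on both vehicle arrays and had a scaled signal of 1144 on the Pla2g3+/+ AOM array and 867 on the other AOM array, against the male label. The Y-linked genes Ddx3y and Eif2s3y kept scaled signals of 409 and 873 on the Pla2g3+/+ AOM array, against 709 and 2611 with vehicle. The part of a mixed-sex pool in the other differences was not tested.

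The outer layers of the colon wall were much weaker on the Pla2g3+/+ AOM array. Of 16 smooth muscle genes, 14 fell and none was higher, with a median of -4.34, and their summed scaled signal was 765408 with vehicle and 65471 after AOM. Des, desmin, had 7921 and 63.2, a 125-fold fall, Cnn1, calponin, fell 85.7-fold, from 109288 to 1275, and Tagln, transgelin, 16.8-fold, from 194208 to 11577. On the arrays labelled Pla2g3-/- the sum was 808964 with vehicle and 779315 after AOM, and none fell. Enteric neuron and glia genes were lower in 12 of 14 and higher in none, with a median of -2.24 and summed signals of 21214 and 5416. With normexp and without scaling 7 were lower, with medians of -1.13 and -1.22. In the pair labelled Pla2g3-/-, 5 of 14 were lower. Vip, a neuropeptide of the gut wall, was at least 128-fold lower, from 1613 to 4.78. In pooled tissue RNA, fewer cells of a type and less RNA per cell cannot be told apart. How far the sampled layers account for the other differences was not tested.

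The colon wall is built of a single-layered epithelium of crypts, with stem cells at the base and absorptive, goblet and enteroendocrine cells above, over a connective tissue that holds immune cells, and an outer muscle coat with enteric nerves. Wnt signaling through β-catenin and the TCF/LEF factors maintains the crypt base, and its activation is the common early step of intestinal tumors, including those of AOM-treated mice. Paneth cells, the defensin-secreting cells of the small intestinal crypt base, are absent from normal mouse colon, and their program is one that Wnt signaling can switch on.

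**Figure D1:**
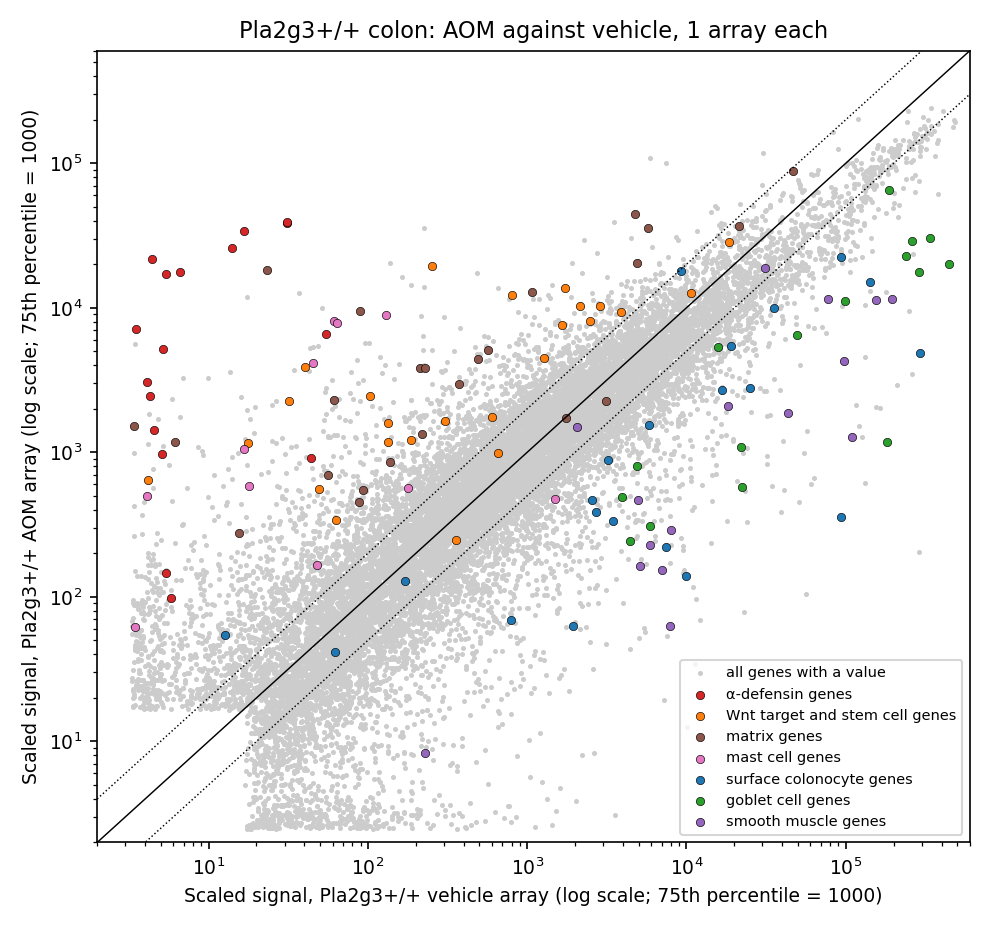
Scaled signal of each gene with a value on the Pla2g3+/+ vehicle array (x axis) and the Pla2g3+/+ AOM array (y axis), both on log scales, with 1 point per gene. The solid line marks equal signals and the dotted lines 2-fold. The α-defensin, Wnt target, matrix and mast cell genes lie mostly above the upper dotted line, and goblet cell, surface colonocyte and smooth muscle genes mostly below the lower one.

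The largest rises were those of α-defensin genes, which encode the antimicrobial cryptdins of Paneth cell granules. Probes of 3 of these genes, each with an open first reading frame, are shown because the genes are close copies of each other, and a probe may also bind the RNA of a neighbor. The probes cover the same stretch, and capitals mark the bases at which Defa2 and Defa36 differ from Defa3.
Defa3: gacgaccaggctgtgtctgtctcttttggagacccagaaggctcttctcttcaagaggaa
Defa2: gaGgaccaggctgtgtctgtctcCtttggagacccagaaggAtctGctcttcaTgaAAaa
Defa36: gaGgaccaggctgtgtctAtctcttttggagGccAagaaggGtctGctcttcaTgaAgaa

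The 3 probes lie on chromosome 8 of mm9, at 22427233 to 22427292 for Defa3, 22619884 to 22619943 for Defa2 and 22675997 to 22676056 for Defa36. Defa2 shares 53 and Defa36 52 of the 60 bases with Defa3. The Defa3 probe had a scaled signal of 4.0 with vehicle and 24843 after AOM in Pla2g3+/+, at least 1497-fold higher. The Defa2 probe had 4.41 and 21587, at least 1301-fold higher, and the Defa36 probe 6.65 and 17794, at least 1072-fold higher. All 3 were below background with vehicle. Across the arrays labelled Pla2g3-/- none of the 3 exceeded a scaled signal of 38.4. The Defa3 probe shown is not the brightest one, by which Defa3 is read elsewhere. The brightest had 14.1 with vehicle and 25790 after AOM in Pla2g3+/+, and 131 and 45.0 on the arrays labelled Pla2g3-/-. A further Defa3 probe had 20.7 with vehicle in Pla2g3+/+, well above background, and 109 on the vehicle array labelled Pla2g3-/-.

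The rise extended over the family. All 17 α-defensin genes with a probe were over 2-fold higher after AOM in Pla2g3+/+, with log2 differences or bounds from 2.57 (Defa25) to 10.98 (Defa28) and a median of 8.29. Defa25 was within 2-fold with normexp background correction. With vehicle, 4 of the 17 were well above background, none with a scaled signal over 54.9. After AOM all 17 were, at 98.3 to 39111. Those detected only after AOM could not count as lower. Defa40 had 31.0 with vehicle and 39111 after AOM, a 1262-fold rise, and Defa23 had 31.2 and 38644, a 1238-fold rise. Defa28 had 16.7 and 33770, at least 2017-fold higher, and Defa24 5.41 and 17041, at least 1027-fold higher. Because the RNA of one copy can bind the probe of another, the size for a single α-defensin gene is uncertain and the number of genes truly expressed is not known. On the arrays labelled Pla2g3-/-, 10 of the 17 gave a value, of which 2 were over 2-fold higher and 1 lower after AOM, and the highest signal after AOM was 97.5.

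Of the 12 genes of the Paneth cell list with a value, 10 were higher and 1 lower, with a median log2 difference of 6.54 against -0.17 for all genes, but 7 of the 12 are α-defensins already counted above. Of the other 5, 3 rose, 1 was within 2-fold and 1 fell. A gene of the list detected only after AOM can never count as lower. Of the 7 list members detected on both arrays, 5 were higher and 1 lower, with a median of 4.53. Mmp7, the protease that activates α-defensins in Paneth cells, had 487 with vehicle and 17355 after AOM, and Lyz1, the Paneth cell lysozyme, had 8790 and 29291. These are log2 differences of 5.16 and 1.74. The RNA of Pla2g2a, a gene for a secreted phospholipase of Paneth cells, rose 23.1-fold, from 223 to 5136. Whether these mice make an active enzyme from it was not measured. Ang4, a ribonuclease found in Paneth and goblet cells, fell 28.5-fold, from 131305 to 4600. Itln1, an intelectin of secretory cells, had 20601 and 18771, within 2-fold. On the arrays labelled Pla2g3-/-, 5 of 9 Paneth cell genes fell, Mmp7 from 576 to a signal of 11.8 that was below background.

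**Figure D2:**
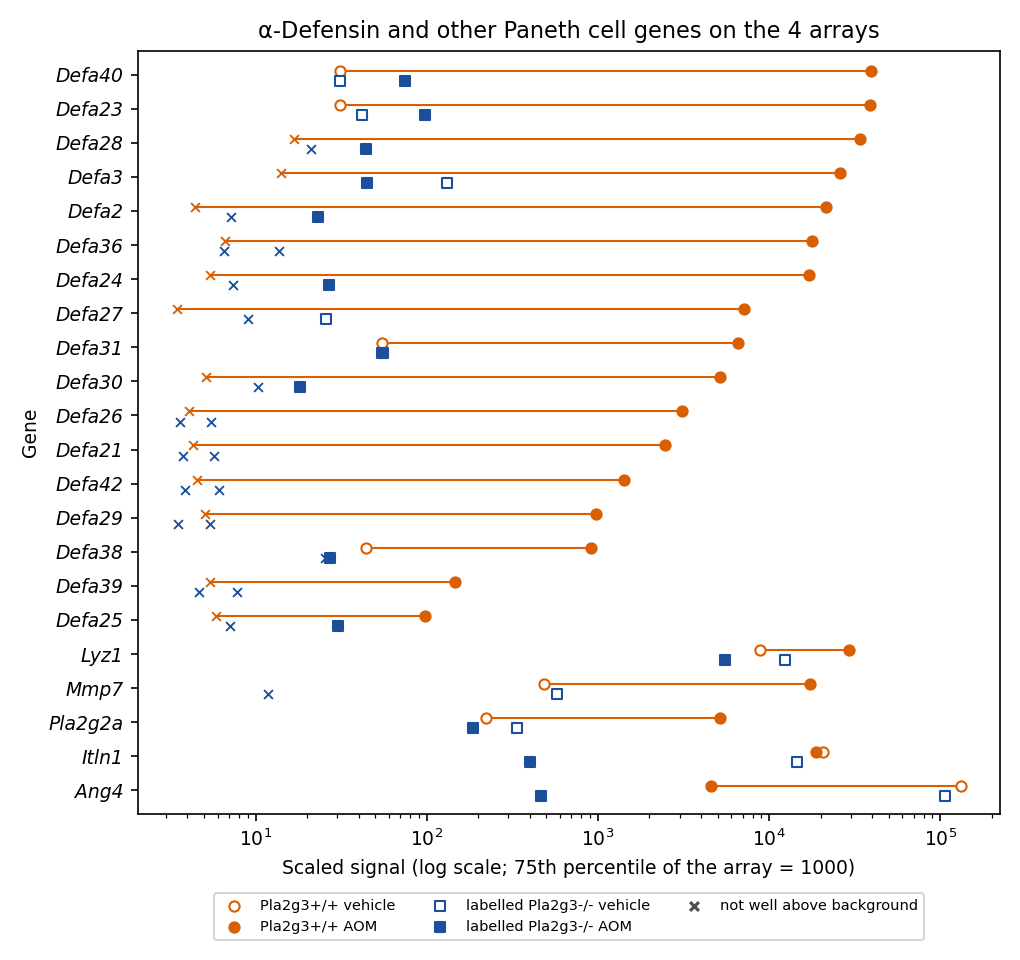
Scaled signal (x axis, log scale) of 17 α-defensin genes and 5 other Paneth cell genes on each of the 4 arrays, 1 array per group; crosses are signals not well above background and the orange line joins the Pla2g3+/+ vehicle and AOM values. All 17 α-defensin genes reached 98.3 or more on the Pla2g3+/+ AOM array, whereas none exceeded 97.5 on the other AOM array, and Ang4 moved the opposite way.

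The promoters of the α-defensin genes were searched because the family moved together. In RefSeq promoters of build GRCm38.p6, from 250 bases before to 50 after each gene start, the letters CTTTGAT, the core that TCF/LEF factors recognize, occurred on either strand in 3.73% of all 32851 promoters. Of the 9 promoters listed for measured α-defensin genes, 7 held it. These were Defa2, Defa21, Defa23, Defa28, Defa30, Defa31 and Defa36. The letters TATAAA occurred in 8 of the 9, against 13.6% of all promoters. The α-defensin genes are close copies, and Defa2 and Defa21 held CTTTGAT at the same 2 positions. The 9 promoters are therefore not independent, and their counts were not tested against the shares of all promoters. Of 23 promoters of the Wnt target list, CTTTGAT occurred in 2, for Sp5 and Tnfrsf19. The 130 bases before the start of 2 α-defensin genes and of Sp5 are shown, on the plus strand, with CTTTGAT or its reverse complement ATCAAAG in capitals.
Defa21 (chr8:21025415-21025544): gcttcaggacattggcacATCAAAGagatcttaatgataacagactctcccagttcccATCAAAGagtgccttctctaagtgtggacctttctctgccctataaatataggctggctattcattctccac
Defa23 (chr8:21054910-21055039): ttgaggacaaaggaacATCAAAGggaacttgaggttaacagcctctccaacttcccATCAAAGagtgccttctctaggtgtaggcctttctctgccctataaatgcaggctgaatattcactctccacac
Sp5 (chr2:70474793-70474922): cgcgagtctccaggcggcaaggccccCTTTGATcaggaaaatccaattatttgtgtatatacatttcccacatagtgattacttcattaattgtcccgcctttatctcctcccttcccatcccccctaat

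The first copy began 112 bases before the start in Defa21 and 114 in Defa23, and the second 72 and 74 bases before it. In Sp5 the copy began 104 bases before the start. The promoters of Defa38 and Defa42 held no copy, and Defa38 also rose, from 44.1 to 915. A match of letters is a description and not a bound site. The other motifs searched, the NF-κB core by its name and the letters TTTGAA on either strand, occurred in 0 of the 9 α-defensin promoters, against 1.63% and 17.9% of all. The NF-κB core occurred in 5 of 16 promoters of the chemokine list, and TTTGAA, found in the cell cycle homology element, in 9 of 23 of the cell division list. Both lists are described below. TTTGAA was not particular to the cell division list. Its share in the other lists ran from 0 to 44.4%, the highest being 8 of 18 promoters of the antimicrobial list.

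Wnt target and crypt stem cell genes rose as a group. Of 25 with a value, 21 were over 2-fold higher, 4 were within 2-fold and none was lower, with a median log2 difference of 2.44. Without scaling or with quantile normalization, 24 and 22 were higher and none was lower. Sp5, a transcription factor induced directly by β-catenin, had 40.2 with vehicle and 3923 after AOM, a 97.7-fold rise. Wif1, a secreted Wnt inhibitor that is itself induced by the pathway, rose 77.6-fold, from 252 to 19530. Both are named because their rises were among the largest of the list. The vehicle array labelled Pla2g3-/- had 41.7 for Sp5 and 162 for Wif1.

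Further feedback inhibitors were among the rises. Dkk2 rose 70.6-fold, from 32.1 to 2270, and Apcdd1 at least 66.1-fold, from 17.6 to 1163. Ephb3, a receptor that positions cells in the crypt, had 18543 and 28387, which is 1.53-fold and within the threshold, although past it with quantile normalization. The following members are named for their textbook roles and were picked after their values were seen. Axin2, the standard reporter of Wnt activity, had 133 and 1590. Lgr5, the receptor that marks crypt stem cells, had 134 and 1187, and Ascl2, their transcription factor, 1664 and 7659. Myc, the growth regulator downstream of β-catenin, had 306 and 1660. All 4 were over 2-fold higher, with log2 differences from 2.20 to 3.58. Olfm4, a stem cell marker of the small intestine, was below background on both Pla2g3+/+ arrays. On the arrays labelled Pla2g3-/-, the median of the list was 0.11, with 4 of 24 genes higher and 3 lower.

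Cell division genes were mostly within 2-fold. Of 25 with a value, 9 were over 2-fold higher, none was lower, and the median was 0.89. The number higher was 13 with quantile normalization, 8 with normexp and 22 without scaling. Top2a, a topoisomerase of dividing cells, had 370 with vehicle and 1477 after AOM, a 4.0-fold rise, and Mcm3, a subunit of the replication helicase, rose 3.13-fold, from 1137 to 3555. Plk1, a mitotic kinase, rose 2.87-fold and Mki67, which encodes the Ki-67 antigen, 2.73-fold. Birc5 and Ccnb2, also mitotic genes, had 11207 and 9979 and 3714 and 3535, within 2-fold.

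Among p53 targets and cell cycle inhibitors, 5 of 14 were higher and 2 lower, with a median of 0.36, and 8 and 1 without scaling. The 5 and 2 are 35.7% and 14.3%, against 15.1% and 22.4% of all genes. Cdkn2a, which encodes p16 and the p53-stabilizing p19ARF, had a signal of 13.6 with vehicle, below background, and 3617 after AOM, at least 218-fold higher; its other probe gave a log2 bound or difference of 3.87. Cdkn2a was 57.9 on the AOM array labelled Pla2g3-/-. Trp53 itself rose 2.22-fold, from 58.5 to 130, and was within 2-fold with normexp. Bax, a pro-apoptotic p53 target, fell 5.1-fold, from 4996 to 980. Cdkn2b, a neighbor of Cdkn2a on chromosome 4, had 9843 and 4779, a 2.06-fold fall that was within 2-fold with quantile normalization.

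The differentiated functions of the colonic epithelium were lower. Of 21 genes of surface colonocyte ion and water transport, 17 fell and 1 was higher, with a median log2 difference of -2.65. Aqp8, a water channel of the surface cells, had 93405 with vehicle and 358 after AOM, a 261-fold fall. Slc26a3, the chloride and bicarbonate exchanger of the colon, fell 71.4-fold, from 9973 to 140. Guca2a, which encodes the hormone guanylin, fell 60.7-fold, from 293931 to 4841. In arrays labelled Pla2g3-/- the same genes had a median of -0.02, and Slc26a3 was 2.63-fold higher after AOM. The Slc9a3 sodium and proton exchanger had 9210 and 17918, within 2-fold, and was past 2-fold higher with quantile normalization.

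All 16 goblet cell genes fell, with a median of -3.42, and 14 or more fell under each scaling. Zg16, a lectin of the mucus, had 443698 with vehicle and 20008 after AOM, a 22.2-fold fall. Retnlb, a goblet cell peptide induced by bacteria, fell 154-fold, from 181333 to 1180, and Spdef, a transcription factor of goblet cell maturation, 20.2-fold, from 22009 to 1089. Muc2, the gel-forming mucin, was picked for its role after its values were seen and had 49428 and 6532. On the arrays labelled Pla2g3-/-, 11 of 16 fell, with a median of -1.25.

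Of 12 enteroendocrine genes, 11 fell, with a median of -4.33. Insl5, a peptide of colonic L cells, fell 119-fold, from 11424 to 96.2, and Gcg, the precursor gene of GLP-1, 88.5-fold, from 5413 to 61.1. Sst, which encodes somatostatin, had 2212 with vehicle and 8.0 after AOM, below background, so that it was at least 176-fold lower. Pyy, the peptide YY gene, was the 1 member within 2-fold, at 15176 and 10606. Enteroendocrine genes also fell in the pair labelled Pla2g3-/-, with 9 of 12 lower, 1 higher and a median of -2.30. Tuft cell genes were lower in 4 of 10 and higher in 1, or 2 and 4 of 9 without scaling. Trpm5, a channel of tuft cell signaling, fell 8.9-fold, from 158 to 17.8. Tuft cell genes were lower in 6 of 9 and higher in none in the pair labelled Pla2g3-/-.

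Detoxification enzymes fell with the absorptive genes. Of 21, 17 were lower and 1 higher, with a median of -3.58. Cyp2c55, a colonic cytochrome P450, had 56335 with vehicle and 105 after AOM, a 535-fold fall, and Sult1a1, a sulfotransferase, fell 101-fold, from 39138 to 386. Ugt2b5, a glucuronosyltransferase, had 1125 and then 2.58, below background, and was at least 89.5-fold lower. Ephx1, an epoxide hydrolase, was 2.44-fold higher, at 3241 and 7893, although its other probe gave 0.58 on the log2 scale. Detoxification genes were lower in 11 of 21 and higher in none in the pair labelled Pla2g3-/-, with a median of -1.01. Of 20 genes of fatty acid oxidation and ketogenesis, 12 fell and none was higher. Ppara, the lipid-sensing receptor that controls these genes, fell 13.4-fold, from 1167 to 87.3. The median of that list was -1.31. With quantile normalization 10 were lower and the median was -0.99, with normexp 10 and -0.93, and without scaling 5 were lower and 1 higher, with a median of -0.29.

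Single genes of the surface and transport functions were among the 10 largest falls. Mptx1, a mucosal pentraxin, had 287063 with vehicle and 205 after AOM, a 1397-fold fall and the largest of any gene that both arrays detected well above background. Btnl1, an epithelial butyrophilin-like protein that maintains intraepithelial lymphocytes, fell 328-fold, from 11267 to 34.3, and Fabp2, the intestinal fatty acid binding protein, 216-fold, from 132751 to 614. Gm1123, Apol10a and Tmigd1 fell 291-fold, 176-fold and 142-fold. Slc51a, the organic solute transporter subunit that exports bile acids, had 10122 and then 12.6, below background, and was at least 800-fold lower. Hsd17b13 and Cyp4b1 were at least 210-fold and 162-fold lower, although a further probe of Hsd17b13 gave a log2 difference of -1.24. Of 13 tissue kallikrein genes (Klk1 and the Klk1b copies), 11 were over 2-fold lower, the most by a log2 difference of -6.83. Klk1b27 was at least 3.29-fold higher, from 5.24 to 54.6 but within 2-fold with normexp, and Klk1b9 had 17.6 and 28.6, within 2-fold. Both were named after their values were seen. These are near-identical copies, so the number of separate genes behind this is uncertain.

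Of 10 pan-epithelial genes, 4 were lower, 6 within 2-fold and none higher, with a median of -0.61. The median was 0.09 with quantile normalization, 0.08 with normexp and 0.41 without scaling, each with 3 lower and 1 higher. Cdh1, which encodes E-cadherin, had 8321 with vehicle and 12943 after AOM, within 2-fold, and was past 2-fold higher with quantile normalization. Phgr1, a small protein of the mucosa, fell 11.1-fold, from 262492 to 23545. Among colon position and identity factors, the intestinal homeobox gene Cdx2 fell 12.1-fold, from 9066 to 751, and Klf4, a factor of surface differentiation, 5.87-fold, from 24793 to 4226. Hoxd10, Hoxd11, Hoxd12 and Hoxd13, posterior homeobox genes, were 2.25-fold to 3.73-fold higher, although Hoxd10 was within 2-fold with normexp and the other probe of Hoxd11 gave 0.92 on the log2 scale. In arrays labelled Pla2g3-/- these 4 were also higher, by log2 differences of 2.09 to 3.39.

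Matrix and matrix remodelling genes rose in number and size. Of 24, 20 were higher and none lower, with a median of 3.15, and 20 to 23 were higher under each scaling. The pair labelled Pla2g3-/- had 10 of 21 higher and 1 lower, with a median of 0.99. Mmp10, stromelysin 2, had 23.1 with vehicle and 18149 after AOM, a 785-fold rise, and Mmp13, a collagenase, rose 107-fold, from 88.8 to 9488. Spp1, which encodes osteopontin, was below background with vehicle at 3.39 and had 1527 after AOM, at least 92.0-fold higher. Mmp9, a gelatinase, was at least 70.9-fold higher. Sparc, Lum and Postn, secreted matrix proteins of fibroblasts, had log2 differences of 0.91, -0.48 and -0.02, within 2-fold, although Sparc was past it with quantile normalization. Spock2, a matrix proteoglycan outside the list, rose 122-fold, from 43.1 to 5267.

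Fetal-like repair and YAP target genes, which regenerating epithelium switches on, were higher in 10 of 15 and lower in none, with a median of 1.56. Clu, which encodes clusterin, rose 13.4-fold, from 7475 to 99884. Ereg, an EGF receptor ligand, rose 9.71-fold, from 292 to 2841. Anxa1, an annexin, rose 2.38-fold. In the pair of arrays labelled Pla2g3-/-, Clu was lower after AOM, at 7482 and 3635.

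**Figure D3:**
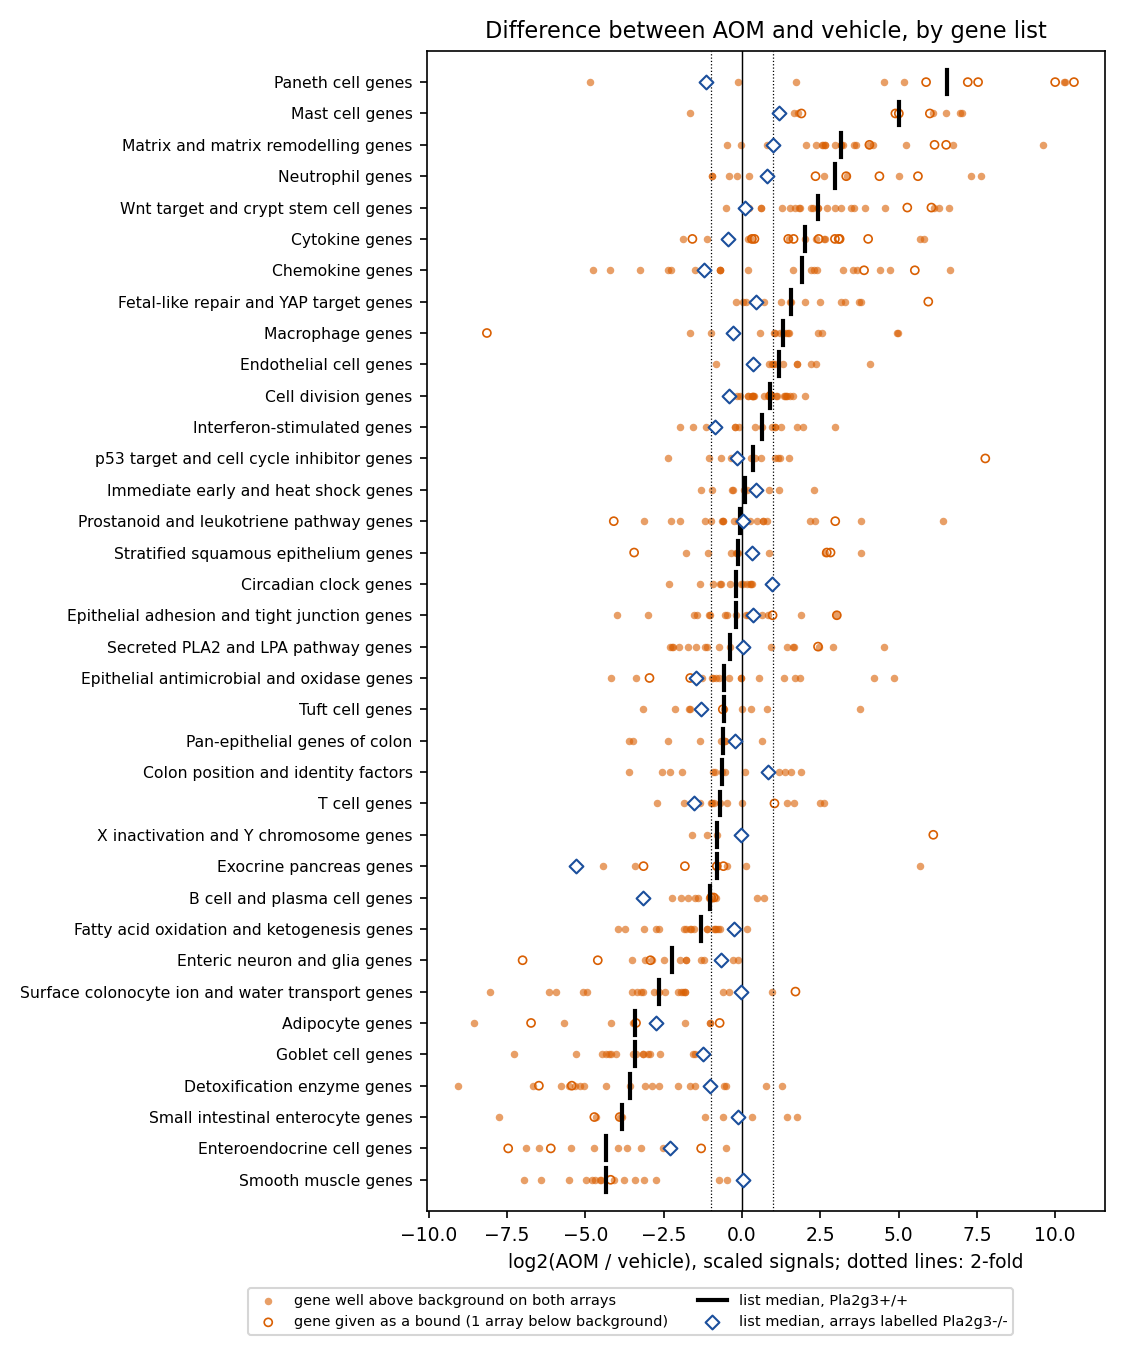
Difference between AOM and vehicle in Pla2g3+/+ colon (x axis, log2 of the ratio of scaled signals) for each member of 36 gene lists, ordered by the list median, with 1 array per group. Filled points are genes well above background on both arrays, open circles are bounds, black bars are list medians and diamonds the medians on the arrays labelled Pla2g3-/-. Medians run from -4.34 for smooth muscle genes to 6.54 for Paneth cell genes, and the diamonds of these lists lie at 0.05 and -1.16.

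Inflammatory genes were mostly higher. Of 21 cytokine genes with a value, 14 were higher and 3 lower, with a median of 2.01. With normexp 10 were higher and 1 lower and the median was 0.99, and without scaling 18 were higher and none lower. A gene detected only after AOM can never count as lower. Of the 11 cytokine genes detected on both arrays, 7 were higher and 2 lower, with a median of 2.01. In the arrays labelled Pla2g3-/-, 2 of 13 were higher and 5 lower, with a median of -0.44. Il1b, the inflammasome-dependent cytokine, had 102 with vehicle and 5671 after AOM, a 55.8-fold rise. Il11, a cytokine of the IL-6 family made by stroma, rose 51.1-fold, from 54.9 to 2807. Il6 was below background with vehicle at 3.8 and had 270 after AOM, at least 16.3-fold higher. Tnf rose 5.11-fold, from 162 to 828.

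Of the cytokines of the Th17 axis, Il23a was at least 8.52-fold higher, from 9.37 to 141, and Il17a at least 3.14-fold, from 7.07 to 52.1, although Il17a was within 2-fold with normexp. Il22, which acts on the epithelium, had 21.2 and 25.8, and Ifng, the Th1 cytokine, 58.0 and 66.2. Both were within 2-fold. Il17f was at least 2.99-fold lower after AOM, from 37.6 to 9.32, but within 2-fold with normexp, and Il18, made by the epithelium, fell 3.68-fold, from 13251 to 3606. The arrays labelled Pla2g3-/- had 96.7 and 79.0 for Il1b and 121 and 48.0 for Tnf.

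Of 22 chemokine genes with a value, 12 were higher and 6 lower, with a median of 1.92. The 12 and 6 are 54.5% and 27.3%, against 15.1% and 22.4% of all genes. Cxcl5, a neutrophil attractant, had 165 with vehicle and 16430 after AOM, a 99.8-fold rise, and Cxcl3, of the same receptor, was at least 45.8-fold higher. Ccl28, a mucosal chemokine for plasma cells, fell 27.2-fold, from 2414 to 88.8, and Ccl5, a T cell attractant, 18.5-fold, from 8997 to 485. With the 2 bounds left out, the median was 0.90. In the pair of arrays labelled Pla2g3-/-, 1 of 20 was higher and 11 lower, with a median of -1.21.

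Among neutrophil genes, 9 of 14 were higher and none lower, with a median of 2.98. The median was 1.26 with normexp, and 1.42 with 5 of 10 higher over the genes detected on both arrays. S100a8 and S100a9, the subunits of calprotectin, had 51.2 and 224 with vehicle and 10039 and 35747 after AOM, rises of 196-fold and 160-fold. Clec4e, a receptor of activated myeloid cells, was at least 49.0-fold higher. Elane and Camp, products of neutrophil granules, had log2 differences of -0.96 and -0.41, within 2-fold, although Elane was past it with quantile normalization. The whole list was well above background in 10 of 15 genes with vehicle and in 14 after AOM.

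Macrophage genes were higher in 11 of 15 and lower in 2, with a median of 1.30, against 2 higher and 2 lower of 15 and a median of -0.28 in the arrays labelled Pla2g3-/-. Arg1, arginase of alternatively activated macrophages, rose 31.5-fold to 1669, and Chil3 (Ym1) had 35.2 and 1099, a 31.2-fold rise. Retnla (Fizz1), a further gene of that state, went the other way, from 3536 with vehicle to 3.1 after AOM, below background and at least 281-fold lower. It was 1653 and 7444 on the arrays labelled Pla2g3-/-. Adgre1, which encodes F4/80, rose 2.33-fold, from 414 to 967, or 0.98 on the log2 scale with normexp, and Cd68 5.44-fold, from 436 to 2370. Itgam fell 3.14-fold by its brightest probe, whereas its other probes ranged from -0.03 to 1.54 on the log2 scale, so its direction is unsettled.

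Mast cell genes were mostly higher, 10 of 11, and 1 was lower, with a median of 5.01, or 2.45 with normexp. Of the 7 detected on both arrays, 6 were higher and 1 lower, with a median of 6.10. Mcpt1 and Mcpt2, the chymases of mucosal mast cells, had 61.6 and 63.9 with vehicle and 8127 and 7879 after AOM, rises of 132-fold and 123-fold. Mcpt4, the chymase of connective tissue mast cells, rose 68.5-fold, from 130 to 8877, and Hdc, which makes histamine, 91.2-fold, from 45.4 to 4140. Kit, the stem cell factor receptor, which interstitial cells of Cajal also carry, fell 3.16-fold, from 1498 to 474. The pair labelled Pla2g3-/- had 6 of 10 higher and 2 lower, with a median of 1.18. There Mcpt4 was higher after AOM, at 159 and 386, whereas Mcpt1 and Mcpt2 were the 2 lower, at 27.3 and 23.6 after AOM.

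Lymphocyte genes did not share that rise. Among T cell genes 5 of 15 were higher and 4 lower, and 6 and 1 without scaling. The 5 and 4 are 33.3% and 26.7%, against 15.1% and 22.4% of all genes. Il2ra, the high-affinity IL-2 receptor, rose 6.15-fold, from 25.0 to 154, Gata3 5.66-fold, from 41.7 to 236, and Foxp3, the factor of regulatory T cells, 2.72-fold, from 40.4 to 110. Tbx21, the Th1 factor, fell 2.56-fold, from 85.1 to 33.3. Cd8a fell 3.6-fold. Foxp3, Tbx21 and Cd8a were within 2-fold with normexp. B cell and plasma cell genes were lower in 6 of 12 and higher in none, and Ms4a1, which encodes CD20, fell 4.72-fold, from 629 to 133. The number lower was 2 with normexp, and without scaling 1 of 10 was lower and 2 higher. In the pair labelled Pla2g3-/-, 9 of 11 were lower, with a median of -3.17.

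Interferon-stimulated genes were higher in 6 of 15 and lower in 3, but 9 were higher and none lower without scaling. The 6 and 3 are 40.0% and 20.0%, against 15.1% and 22.4% of all genes. Ifit2 rose 7.82-fold, from 225 to 1756, and Usp18 3.88-fold, from 866 to 3365, whereas Irf7 fell 3.94-fold, from 4529 to 1150, and Isg15 2.95-fold, from 15046 to 5093. Irf7 and Isg15 were within 2-fold without scaling, at -0.96 and -0.54 on the log2 scale. Epithelial antimicrobial and oxidase genes were split, 5 of 18 higher and 5 lower, with 5 and 2 under normexp and 6 and 3 without scaling. Each 5 is 27.8%, against 15.1% of all genes higher and 22.4% lower. Lcn2, the siderophore-binding lipocalin, rose 28.6-fold, from 300 to 8589, and Wfdc18 18.5-fold, from 5908 to 109287. Reg4, a lectin of secretory cells, fell 17.9-fold, from 31839 to 1775, and Reg3b 10.4-fold, from 28865 to 2782. Reg3g had 6149 and 3428, within 2-fold, whereas on the arrays labelled Pla2g3-/- it went from 84498 to 116.

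Prostanoid and leukotriene pathway genes were higher in 5 of 22 and lower in 5, with a median of -0.06. That is 22.7% each way, against 15.1% of all genes higher and 22.4% lower. Without scaling 11 were higher and 3 lower, with a median of 0.96. Ptgs2, which encodes the inducible cyclooxygenase COX-2, had 95.4 with vehicle and 1329 after AOM, a 13.9-fold rise, whereas Ptgs1, the constitutive form, had 1679 and 2906, within 2-fold. Ptges, the inducible prostaglandin E synthase, had 20128 and 12949 by its brightest probe, within 2-fold, while its other probe rose by 1.91 on the log2 scale, so its direction is unsettled. Ptges2 had 2888 and 1455, 1.99-fold lower. Alox12, the platelet-type 12-lipoxygenase, rose 85.9-fold, from 42.5 to 3655. Hpgd, which degrades prostaglandins, fell 8.66-fold, from 10479 to 1209, and Ptger3, a prostaglandin E receptor, was at least 17.0-fold lower, from 214 to 3.15.

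Of 19 genes of secreted phospholipases A2 and the lysophosphatidic acid pathway, 7 were higher and 8 lower, and without scaling 9 and 4. The median was -0.39. The 7 and 8 are 36.8% and 42.1%, against 15.1% and 22.4% of all genes. Beside Pla2g2a, Pla2g2e rose 7.5-fold, from 49.3 to 370, and Pla2g2d, an enzyme of lymphoid dendritic cells, 5.54-fold, from 98.0 to 543. Pla2g10, an epithelial enzyme, fell 4.68-fold, from 26677 to 5699, and Pla2g5 4.62-fold, from 3453 to 748. Enpp2, which encodes autotaxin, the enzyme that makes lysophosphatidic acid, fell 4.06-fold, from 1182 to 291. Pla2g3 is given above with the check of the labels, and its fall was within 2-fold with normexp and without scaling.

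Epithelial adhesion and tight junction genes were higher in 3 of 17 and lower in 6, or 5 and 4 with quantile normalization and 8 and 2 without scaling. The 3 and 6 are 17.6% and 35.3%, against 15.1% and 22.4% of all genes. Cdh13, T-cadherin, had 442 and 3530, a 7.98-fold rise, although its other probe gave 0.85 on the log2 scale. Cldn4, a claudin induced in injured epithelium, rose 3.71-fold, from 313 to 1161, and Dsg4, a desmoglein, was at least 8.14-fold higher, from 4.69 to 135. Cldn15, a pore-forming claudin, fell 15.8-fold, from 7542 to 476, Cldn8 8.0-fold, from 4896 to 612, and Ocln, occludin, 2.03-fold, from 1489 to 733. Ocln was within 2-fold with normexp. Dsg1a and Cldn1 were below background on both Pla2g3+/+ arrays. Vegfa, the angiogenic factor, had 1665 and 2142, within 2-fold, and its other probe gave 1.04 on the log2 scale. Of 12 endothelial genes 7 were higher and none lower. Angpt2, made by sprouting vessels, rose 16.9-fold, from 120 to 2021.

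**Figure D4:**
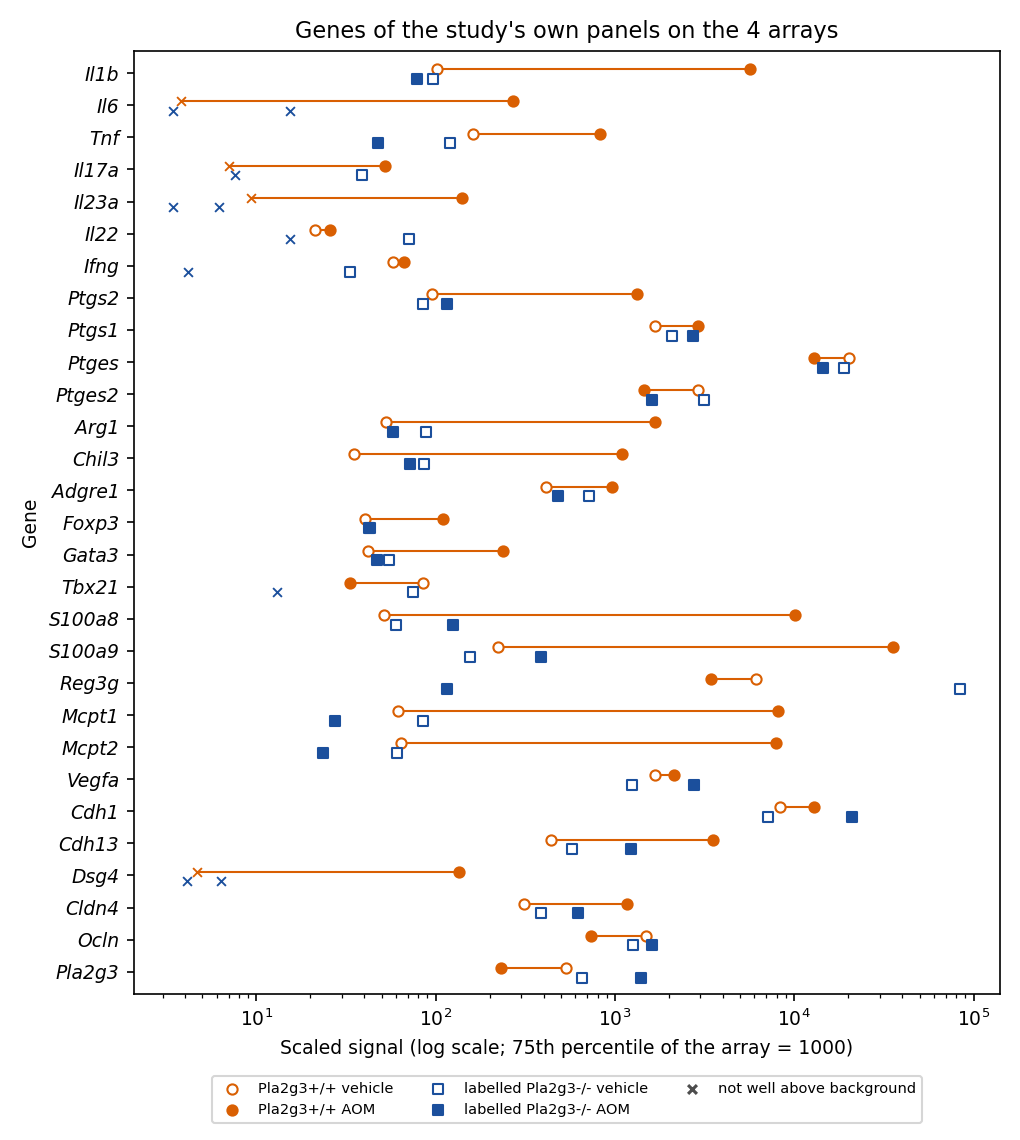
Scaled signal (x axis, log scale) of 29 genes of the study's own array and RT-PCR panels on each of the 4 arrays, 1 array per group. Crosses are signals not well above background and the orange line joins the Pla2g3+/+ vehicle and AOM values, which lie far apart for Il1b, S100a8, S100a9, Mcpt1 and Mcpt2 and close together for Ifng, Il22 and Vegfa.

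Genes of stratified squamous epithelium, which lines the anal canal, were higher in 4 of 12 and lower in 3, with a median of -0.14 by the brightest probes. The 4 and 3 are 33.3% and 25.0%, against 15.1% and 22.4% of all genes. With the mean over all probes 6 were higher and 1 lower, with a median of 1.19, and with the dimmest detected probes 6 of 10 were higher and none lower, with a median of 2.29. Krt13 gave -0.15 by its brightest probe and 4.54 by its other probe, and was named after its values were seen. Krt14 rose 13.8-fold, from 112 to 1555, and Krt6a was at least 7.13-fold higher, whereas Krt5 had 56.1 and 26.6, a 2.11-fold fall. Krt5 and Krt6a were within 2-fold with normexp. Krt5 was 15273 on the AOM array labelled Pla2g3-/-. Dsg3 was at least 10.9-fold lower by its brightest probe, and its other probes rose, so its direction is unsettled. Other large rises were Mt4, a metallothionein of stratified epithelia, 346-fold from 36.7 to 12690, and Krt36, a hair and tongue type keratin, 149-fold from 137 to 20441.

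Adipocyte genes were lower in 9 of 10, with summed signals of 30097 with vehicle and 6774 after AOM. Cfd, adipsin, had 7250 and 19.3, a 375-fold fall, and Adipoq, adiponectin, 1331 and then 4.02, below background, at least 106-fold lower. Here the arrays labelled Pla2g3-/- moved the same way, with 8 of 9 lower and sums of 54359 and 12175. Exocrine pancreas genes summed to 32346 with vehicle and 6800 after AOM in Pla2g3+/+, and to 68358 and 6764 on the other arrays, with 4 of 9 lower and 1 higher in Pla2g3+/+. Pnliprp1, a pancreatic lipase-related protein, was the 1 higher, from 85.3 to 4345. Most of the Pla2g3+/+ sum with vehicle came from Cela1, at 16539, and Clps, at 15336. Amy2a5, Cela2a and Cela3b were below background on both Pla2g3+/+ arrays, whereas Amy2a5 had 34705 on the vehicle array labelled Pla2g3-/-. Small intestinal enterocyte genes were lower in 7 of 11. Of 12 circadian clock genes none was higher and 2 were lower, or 5 and 1 without scaling, and the lower ones included Dbp, 5.05-fold from 9047 to 1793. The 2 lower are 16.7%, against 22.4% of all genes. Of 10 immediate early and heat shock genes, which respond to tissue handling, 2 were higher and 1 lower, with a median of 0.11, and 6 were higher and none lower without scaling. The 2 and 1 are 20.0% and 10.0%, against 15.1% and 22.4% of all genes.

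Set beside the arrays labelled Pla2g3-/-, which share no array with the Pla2g3+/+ pair, many differences were not common to both. Of 16118 genes with a value in both comparisons, 2266 were higher after AOM in Pla2g3+/+, and 616 of them were also higher on the other pair, which is 27.2% of the Pla2g3+/+ genes and 40.7% of those of the other pair. Of 3630 lower in Pla2g3+/+, 1303 were lower in both, 35.9% and 54.9%. Opposite directions past 2-fold were found for 179 genes higher and 193 lower in Pla2g3+/+. With 1 pool per group, a difference between genotypes cannot be told apart from a difference between pools or in the tissue sampled. Each gene was read by its brightest probe. Of 1719 genes past 2-fold with a further probe, 1541 (89.6%) had all their other probes in the same direction and 38 had 1 past 2-fold the opposite way.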

How the data were processed

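RNA pools were labelled with Cy3 and hybridized to 4 one-color Agilent mouse arrays, 1 per group. The authors deposited scanner output from Feature Extraction 11.5.1.1, in which the intensity of each spot was background-subtracted and detrended, together with other calls per spot (well above background, saturated, outlier), and a table of values that proved to be the ratio of each intensity to a constant of its array. Control and outlier spots were left out, replicate spots averaged, and intensities divided by the 75th percentile of the array. Probe coordinates are those of the deposited files (mm9), and a gene was read by its brightest probe. Folds between 2 arrays were described by size, past 2-fold, with no test; the computation was tested on simulated data. Python 3.11.15, pandas 2.3.3, R 4.3.3 and limma 3.58.1 (normexp with offset 50, quantile normalization) were used. Genes were named by rule: the 10 largest rises and falls well above background on both arrays, the 5 highest bounds each way, the study's panel genes, and of each list up to 4 extreme members and the brightest. Axin2, Lgr5, Ascl2, Myc, Olfm4, Muc2, Lyz1, Mmp7, Pyy, Krt13, Klk1, Klk1b27, Klk1b9, Amy2a5, Cela2a, Cela3b and further α-defensins were added after their values were seen. The members and lists were chosen with earlier results of these data known. The alternatives tried were other scalings, background corrections, detection filters, probe choices and fold thresholds. Values of some genes that the naming rule selects are not reported here.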

Additional observations from a re-analysis of the deposited data

Results flagged for a closer look

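The genes and lists below went past 2-fold in opposite directions after AOM on the Pla2g3+/+ arrays and on the arrays labelled Pla2g3-/-, with 1 pool per group. The difference between the genotypes was not tested. Values are log2 of AOM over vehicle, Pla2g3+/+ first. Several are bounds.

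The median of the Paneth cell genes was 6.54 against -1.16, and 7 of the 12 behind the first value are α-defensins. Over the members detected on both Pla2g3+/+ arrays, the first value was 4.53. Of the Paneth cell list, Defa3 gave 10.60 and -1.54, Mmp7 5.16 and -5.30, and Lyz1 1.74 and -1.16. Of the Wnt and crypt genes, Sp5 gave 6.61 and -1.51, Wif1 6.28 and -1.40, and Lgr5 3.15 and -1.51. Clu, of the repair genes, gave 3.74 and -1.04.

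The median of the chemokine genes was 1.92 against -1.21. Tnf gave 2.35 and -1.34, Il17a 1.65 and -1.40, and the interferon-stimulated Usp18 1.96 and -1.01. The mast cell chymases Mcpt1 and Mcpt2 gave 7.04 and -1.65 and 6.95 and -1.37, whereas 6 of 10 mast cell genes were higher after AOM in the pair labelled Pla2g3-/-. Wfdc18 gave 4.21 and -2.47, and the pancreatic Pnliprp1 5.67 and -2.83.

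The opposite order was seen for Slc26a3, with -6.16 and 1.39, Cldn8, with -3.00 and 1.61, and Krt5, with -1.08 and 8.21. Retnla gave -8.14 and 2.17, Ptger3 -4.09 and 1.65, and Enpp2 -2.02 and 1.23. Pla2g3 itself gave -1.19 and 1.09.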

How the results depend on the processing

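The counts of genes past 2-fold, 2615 higher and 3874 lower, were 7755 and 1233 without scaling, which moved the median of all genes by 1.04 on the log2 scale. Normexp with quantile normalization gave 1719 lower and moved the median by 0.16. At a threshold of 1.5-fold 4223 were higher and 6111 lower, and at 4-fold 861 and 1252. The other alternatives kept both counts within 1.5 times. Of 1664 log2 differences recomputed for 170 named genes, 1598 stayed on their side of 2-fold, 38 came within it and 25 went past it. Genes past 2-fold that turned direction were Dsg3, at 1.49 with the mean over all probes and 1.94 with the dimmest probe, and Pla2g3, at 0.91 with the dimmest probe. Genes within 2-fold that went past it the other way were Krt13, from -0.15 to 2.29 with the mean over all probes and 4.54 with the dimmest, Ptges, from -0.64 to 1.91 with the dimmest probe, and, without scaling, Postn, from -0.02 to just past 2-fold. Of 360 medians of 36 lists, 342 stayed on their side of 2-fold. The squamous epithelium median turned from -0.14 to 1.19 with the mean over all probes and 2.29 with the dimmest probe. In all, 30 gene values and 24 list medians changed sign, counting those within 2-fold. No paired analysis was possible because each group was a single array. Between 64.8% and 69.4% of spots were well above background, and below it only bounds can be given. The spread between mice, and the makeup of the pools, limit every difference and were not measured.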
